A study of Homo sapiens with 4 samples.

Results

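The genes described here are those whose platform symbol follows the naming patterns of collagen chains, laminin chains and integrin subunits. RefSeq lists 88 human symbols of these patterns, made up of 44 collagens, 12 laminins, 26 integrin subunits, 2 integrin pseudogenes and 4 genes named for integrins that encode none. Of the 14812 genes named on the arrays here, 4 matched. They were COL26A1, a collagen, and ITGB1BP1, ITGB1BP2 and ITGB3BP, which encode proteins named for binding integrin tails. No laminin chain, no integrin subunit and none of the other 43 collagens was among the named genes, so those families are not analysed here. The 4 genes are therefore called matched genes below, and nothing said of them extends to collagens, laminins or integrins as families.

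The cells were BE(2)C, a human neuroblastoma line long kept in culture, here grown in DMEM with fetal calf serum. One group was transfected with non-targeting control siRNA and the other with siRNA against SSRP1, each by a cationic lipid reagent. Each group held 2 samples, RNA was taken 72 hours after transfection, and 100 ng of it went to 1 Affymetrix whole-transcript array per sample. The labels give 1 reagent number for the SSRP1 siRNA and do not say whether replicates were separate cultures. The p-values therefore describe the spread among these samples alone, and that spread may be technical. In bulk RNA such as this, fewer cells that express a gene and less of its RNA per cell cannot be told apart.

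Collagens are secreted proteins of the extracellular matrix built around a triple helix, and laminins are cross-shaped trimers of the basement membrane. Integrins are paired surface receptors that hold cells to both, and short tails inside the cell connect them to the actin cytoskeleton. Proteins that bind those tails set whether an integrin is active. SSRP1 is a subunit of FACT, a histone chaperone that opens and restores nucleosomes during transcription and replication.

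The siRNA target and the cell type were checked first. SSRP1 had log2 values of 9.05 and 9.23 with control siRNA and of 7.42 and 6.97 with SSRP1 siRNA. SSRP1 thus fell to 26.0% of the control level, with a limma adjusted p of 0.0479. That call was lost with the replicate block (0.0569), with robust variances (0.0512), over all probe sets (0.144) and without any 1 array (0.241 to 0.599). Of 12 markers of adrenergic neuroblastoma 10 were measured, and the mean values of all 10 lay above the median gene, between 6.52 and 10.7. Pearson correlations over all probe sets lay between 0.990 and 0.993 for every pair of arrays. The median value of the named genes lay between 4.63 and 4.65 on the 4 arrays.

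At an adjusted p under 0.05 in limma none of the 4 matched genes passed, against 0.0945% of all genes (0.081% higher and 0.0135% lower). None had an unadjusted p under 0.05, higher or lower, where 12.6% of all genes did (6.56% higher and 6.03% lower). Their adjusted p ranged from 0.732 to 0.991. The log2 changes, SSRP1 siRNA minus control siRNA, ran from -0.12 to 0.11, with a median of 0.04 against -0.007 over all genes. A doubling is 1 on this scale, and no bound of their 95% intervals was larger in size than 0.52.

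COL26A1 encodes a secreted collagen with an EMI domain, first described in the developing reproductive organs. Its log2 values were 4.26 and 4.34 with control siRNA and 4.38 and 4.40 with SSRP1 siRNA. Both SSRP1 siRNA arrays were above both control arrays, by a margin smaller than the gap between the control arrays. The change was 0.09 ± 0.10 (SE, n = 2 per group), with a 95% interval from -0.16 to 0.34 and a limma adjusted p of 0.775. As a fold this is 1.06, with an interval from 0.897 to 1.26. It was read by probe set 17049717, gene ID 136227.

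ITGB1BP1 encodes ICAP-1, a small adaptor that binds the tail of the beta 1 integrin subunit and keeps it inactive by competing with talin and kindlin. It was read by probe set 16894311, gene ID 9270. The control arrays gave 6.06 and 6.12 and the SSRP1 siRNA arrays 6.13 and 6.26. The groups did not overlap, although the lower SSRP1 siRNA array nearly met the higher control array. The change was 0.11 ± 0.11 (SE, n = 2 per group), with an interval from -0.15 to 0.37 and a limma adjusted p of 0.732. Among all named genes 45.6% had a change smaller in size than this.

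ITGB1BP2 encodes melusin, a protein of skeletal and heart muscle that also binds the beta 1 tail and acts with the HSP90 chaperone. Probe set 17104688, gene ID 26548, gave 2.49 and 2.31 with control siRNA and 2.49 and 2.08 with SSRP1 siRNA. One SSRP1 siRNA array thus matched the upper control array and the other lay below both, so the groups overlapped. The SD was 0.129 among the control arrays and 0.287 among the SSRP1 siRNA arrays. The change was -0.12 ± 0.16 (SE, n = 2 per group), with an interval from -0.52 to 0.28 and a limma adjusted p of 0.816. This was the widest interval of the 4 genes, and the mean value stood in the lowest 14.1% of named genes, where signal can reflect background as well as RNA.

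ITGB3BP encodes a protein first found by its binding to the beta 3 integrin tail and also known as CENP-R, a subunit of the inner centromere complex. Probe set 16688123, gene ID 23421, gave 4.25 and 4.37 with control siRNA and 4.32 and 4.29 with SSRP1 siRNA. Both SSRP1 siRNA values fell between the control values. The change was -0.01 ± 0.10 (SE, n = 2 per group), with an interval from -0.26 to 0.25 and a limma adjusted p of 0.991. Only 2.82% of named genes had a change smaller in size.

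**Figure D1:**
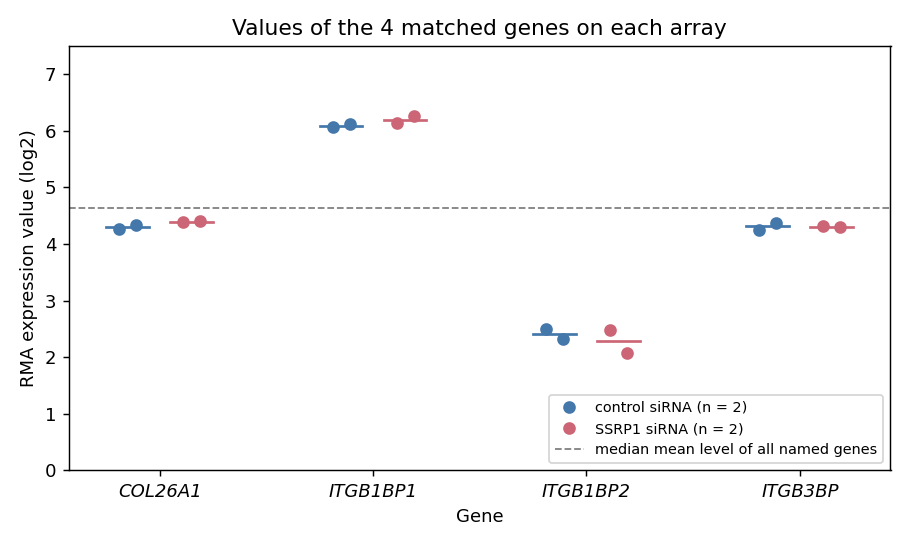
Log2 array values (y axis) of the 4 matched genes (x axis) on each of the 4 arrays, with a point per array, a short line at each group's mean and a dashed line at the median of all gene means (4.64). ITGB1BP2 shows the widest spread between its SSRP1 siRNA arrays (2.49 and 2.08), while for ITGB3BP both SSRP1 siRNA points lie between the control points.

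The groups did not overlap for 2 of the 4 genes, COL26A1 and ITGB1BP1, both upward. Over all genes the groups did not overlap for 44.3%, 21.8% upward and 22.5% downward. Array values depend on each probe set's own response, so comparisons of level between genes, such as those with the median gene, are rough. Each of the 4 genes had 1 probe set, so choosing between probe sets could not move their values. Their standard errors, from 0.0999 to 0.163, lay around the median over all genes (0.117).

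Leaving out 1 array at a time showed how far single arrays moved these estimates. The COL26A1 change stayed above 0, between 0.05 without control siRNA replicate 1 and 0.13 without control siRNA replicate 2. The ITGB1BP1 change also stayed above 0, from 0.04 to 0.17, the lower value without SSRP1 siRNA replicate 2 and the higher without replicate 1 of that group. The ITGB1BP2 change turned sign with the SSRP1 siRNA arrays, from -0.32 without replicate 1 to 0.08 without replicate 2. The ITGB3BP change lay between -0.07 and 0.06 and took both signs. In these fits, where the lone array of a group is assumed to vary like the others, the smallest unadjusted limma p of any of the 4 genes was 0.0829 (ITGB1BP2 without SSRP1 siRNA replicate 1).

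**Figure D2:**
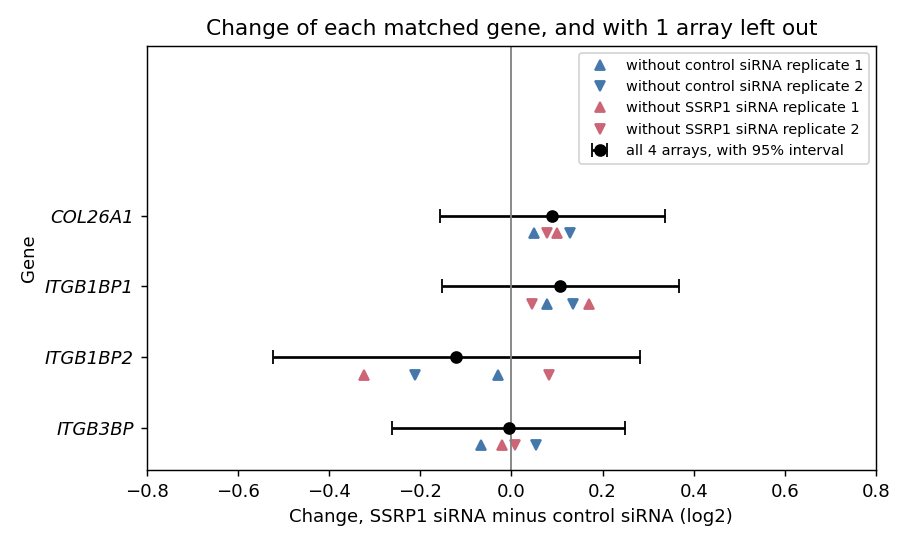
Log2 change, SSRP1 siRNA minus control siRNA (x axis), for each matched gene (y axis), with the 95% interval of the limma fit on 4 arrays in black and the change without each array as coloured triangles below it. All 4 intervals cover 0, and the triangles of ITGB1BP2 and ITGB3BP fall on both sides of it.

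Genes whose products work with the matched genes were examined beside them. This choice of partners was made after it was known which genes matched. ITGB3BP sits at the centromere with CENPO, CENPP, CENPQ and CENPU. None of these 4 had an unadjusted p under 0.05 in limma, and their changes were -0.24 for CENPP, 0.15 for CENPU, 0.11 for CENPO and -0.05 for CENPQ, 2 on each side of 0.

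For ITGB1BP1, 8 of 9 partners were measured and none had an unadjusted p under 0.05 in limma. TLN1, the talin that activates integrins, had a change of 0.21, and FERMT2, the kindlin that acts with it, a change of -0.22. HEG1, the membrane anchor of the KRIT1 complex to which ICAP-1 also belongs, had the largest change in size, 0.41 ± 0.20 (SE), with overlapping groups. For ITGB1BP2 the 1 measured partner of 4 was CHORDC1, an HSP90 co-chaperone of the same domain family, with a change of 0.07.

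COL26A1 shares its EMI domain with EMID1, the emilins and the multimerins. Of these 6 genes 5 had changes above 0, and EMILIN1, an elastic fibre glycoprotein, was the 1 with an unadjusted p under 0.05. Of all genes 6.56% were higher at that limma p. Apart from EMILIN1 the changes ran from -0.12 (EMILIN3) to 0.13 (EMID1), all with overlapping groups. EMILIN1 had 7.13 ± 0.04 (SD, n = 2) with control siRNA and 7.74 ± 0.06 (SD, n = 2) with SSRP1 siRNA. Its change of 0.61 ± 0.10 (SE) did not pass the limma test (adjusted p = 0.138), and the change of EMID1, the closest relative by domain layout, was 0.13 ± 0.15 (SE).

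The wider matrix and adhesion pathway was described by 5 lists, with 125 of 179 genes measured. None of the 125 passed the limma test, with a smallest adjusted p of 0.0556. At an unadjusted p under 0.05, 11.2% were higher and 11.2% lower, 14 genes each, against 6.56% and 6.03% of all genes. With 1 array left out fewer of the 125 were at that p, and the shares of all genes at that p fell too. Without control siRNA replicate 1 or SSRP1 siRNA replicate 2 more of the 125 were higher than lower, so the even split did not hold in every such fit. The list counts below with 1 array left out are also to be read beside those smaller shares of all genes. The median change of the 125 was 0.01, and the changes of the 4 matched genes lay within the range of each of the 5 lists.

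Of 18 genes that process and crosslink collagen, none was higher and 4 were lower at an unadjusted p under 0.05, with a median change of -0.13. The 4 became 1 to 3 with 1 array left out, with 1 left without control siRNA replicate 1 or SSRP1 siRNA replicate 2, and 2 without control siRNA replicate 2. Up to 2 were higher under other settings (1 with a variance trend, 1 without SSRP1 siRNA replicate 1 and 2 among genes at or above the median level). LOXL1, a lysyl oxidase that crosslinks elastin and collagen, had a change of -0.80 ± 0.11 (SE, limma adjusted p = 0.103), and CRTAP, part of the prolyl 3-hydroxylation complex, one of -0.38. Of 38 other matrix glycoproteins and proteoglycans 5 were higher and 4 lower, with a median change of 0.02. None was lower at that p without control siRNA replicate 1 or without SSRP1 siRNA replicate 2, and 2 were without control siRNA replicate 2, while 4 to 6 were higher with 1 array left out. FBN1, the microfibril protein fibrillin-1, gave 4.06 and 3.50 with control siRNA and 5.80 and 5.65 with SSRP1 siRNA. Its change of 1.94 ± 0.20 (SE) missed the threshold with a limma adjusted p of 0.0556. This was 0.0469 after quantile normalization, 0.00681 with a variance trend and 0.00839 among genes at or above the median level. It stayed above the threshold with the replicate block (0.0511), median centring (0.0534), the mean of probe sets (0.0566), robust variances (0.0607) and all probe sets (0.178). With 1 array left out the FBN1 change ran from 1.66 to 2.22. With a variance trend and among genes at or above the median level LOXL1, EMILIN1, TIMP3 and CD47 also passed, and BCAR1 passed under the latter. None of these passed in any other fit on all 4 arrays.

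Of 22 matrix proteases and inhibitors 3 were higher and none lower at an unadjusted p under 0.05, with TIMP3, a metalloproteinase inhibitor bound to the matrix, at 1.22 and CTSB, a lysosomal protease, at 0.37 (limma adjusted p of 0.128 and 0.281). The 3 became 1 without control siRNA replicate 2 or SSRP1 siRNA replicate 1. Of 21 other matrix receptors 2 were higher and 5 lower, with the thrombospondin receptor CD47 at 0.62 and the syndecan SDC1 at -0.44. With 1 array left out 1 to 3 were higher and 1 to 3 lower, fewest lower without control siRNA replicate 1. Of 26 integrin adaptors and signalling genes 4 were higher and 1 lower, with the docking protein BCAR1 at 0.55 and the tensin TNS1 at 0.52. Without control siRNA replicate 2 the counts turned to 1 higher and 2 lower, and with any other array left out 3 were higher. These lists share genes with the partners above (talins, kindlins and EMILIN1).

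**Figure D3:**
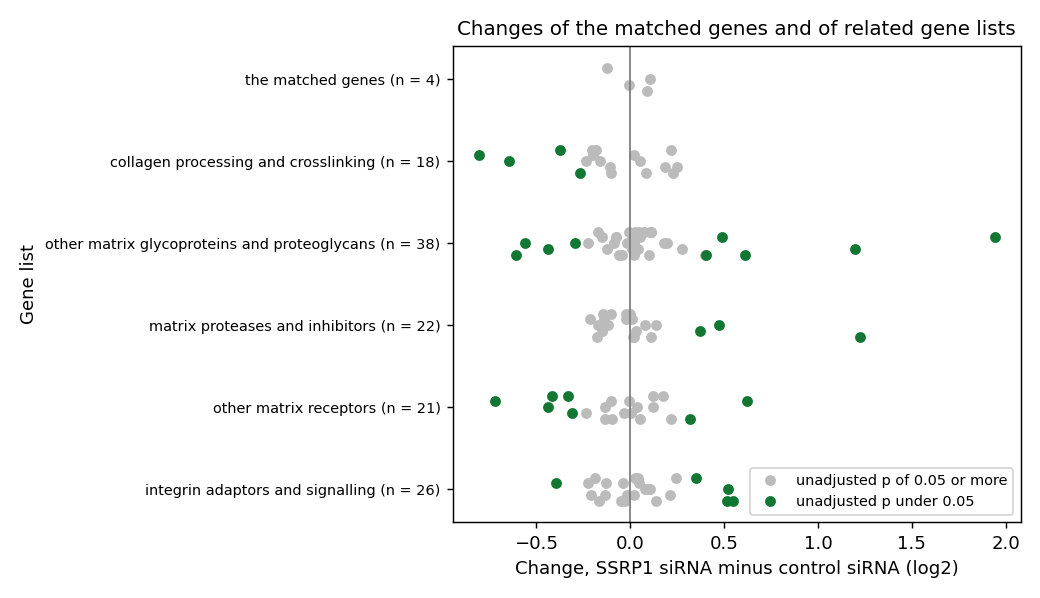
Log2 change, SSRP1 siRNA minus control siRNA (x axis), of the matched genes and of the genes of 5 related lists (y axis), with a point per gene, green where the unadjusted limma p is under 0.05. The 4 matched genes lie between -0.12 and 0.11, while the lists reach from -0.80 (LOXL1) to 1.94 (FBN1).

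Markers of other cell types were measured beside the matrix lists. Of 5 measured fibroblast and stroma markers, which include LUM and FBLN1 of the glycoprotein list, 1 was higher and 1 lower at an unadjusted p under 0.05 in limma. Of all genes 6.56% were higher and 6.03% lower at that p. The mean values of these 5 markers ran from 2.59 to 7.87. Of 6 Schwann and glial markers 2 were higher at that p, where 6.56% of all genes were, and GFRA3 passed the limma test with a change of 1.56 (adjusted p = 0.0267). No gene passed over all probe sets, so this call was lost there. The call was lost with each array left out as well, and GFRA3 was not followed singly under the other alternatives. Of 5 endothelial markers ESAM was higher at that p, with a change of 1.08, and it did not pass (limma adjusted p = 0.278). Of 4 blood and 5 epithelial markers none had such a p. Of the 10 adrenergic neuroblastoma markers 8 had changes below 0, with a median of -0.21 against -0.007 over all genes. At that p 3 of the 10 were lower and 2 higher, against 6.03% and 6.56% of all genes. DBH, which makes noradrenaline, had the smallest p of these, with a change of -0.77 that did not pass the limma test (adjusted p = 0.111). Their part in the values of the matrix genes was not tested.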

How the data were processed

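The authors deposited 1 log2 value per probe set and array, computed by RMA according to the submitters' processing notes. Its software, version and genome build are not stated in the sources used here. The log2 scale was read from the values, 0.502 to 12.8. RMA usually quantile normalizes arrays, so a shift of all transcripts would not show.

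The platform annotation names 15835 of 46255 probe sets with 1 symbol, and 30420 are unnamed here. For each of 14812 genes the probe set with the highest mean was used. Genes were matched by symbol.

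limma 3.58.1 in R 4.3.3 (lmFit, eBayes, no trend, 2 residual degrees of freedom) compared SSRP1 siRNA with control siRNA on all genes, with Benjamini-Hochberg adjustment over them. The test was checked on data simulated from its own fitted variances with independent genes. That check does not cover correlated genes or technical replicates. The number of arrays limits the precision.

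The matched genes, lists and tests were chosen with earlier results of these data known. Named genes were SSRP1, all matched genes and the 2 genes of smallest p in each related list; other genes (partners, LUM, FBLN1, GFRA3, ESAM and DBH) were named after their values were seen. The list of genes to name also held type IV collagen pairs, ITGB1 and ITGAV, which are not analysed here. Alternatives were a replicate block, a variance trend, robust variances, 2 normalizations, the mean of probe sets, a filter on dim genes, all probe sets, an adjusted p under 0.1 and leaving out each array.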

Additional observations from a re-analysis of the deposited data

How the results depend on the processing

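None of the 4 matched genes passed the limma test or had an unadjusted p under 0.05 under any alternative run, although in the fit on genes at or above the median level ITGB1BP1 was the only one of them. COL26A1 and ITGB1BP1 kept their sign throughout. ITGB3BP turned sign after quantile normalization (0.0035) and median centring (0.0053), and with 1 array left out (-0.066 to 0.055), and ITGB1BP2 with 1 array left out (-0.324 to 0.082). The antisense genes COL4A2-AS1 (-0.411 to 0.0924), COL18A1-AS2 (-0.0021 to 0.0304) and ITGB2-AS1 (-0.430 to 0.059) also took both signs with 1 array left out. Genes at or above the median level and all probe sets were fitted as sets of their own, so limma's variance estimates changed there as well as the number of tests. The number of genes past the test, 14 in all, became 6 with the replicate block, 215 with a variance trend and 9 with robust variances. It became 25 after quantile normalization, 179 among genes at or above the median level, 41 at an adjusted p under 0.1, and 0 over all probe sets. It was 0 to 0 with each array left out, with 1 residual degree of freedom. The SSRP1 change was -1.95 with adjusted p of 0.0569 (replicate block), 0.0512 (robust variances) and 0.144 (all probe sets), and -2.17 to -1.72 with 1 array left out. The replicate numbers gave 2 pairs, and the pairing rests on those numbers alone. Deviations of same-numbered arrays from their group means correlated at 0.11 over genes, which cannot show whether the arrays shared a culture. Of the 125 genes of the related lists 6 passed with a variance trend and 6 among the 64 at or above the median level. After quantile normalization 1 passed, against none in the report. At an adjusted p under 0.1 FBN1 alone of the 125 passed in the report's fit (limma adjusted p = 0.0556). No median could be given for laminins or integrins, since none matched. Depth is not defined for arrays, and without background values dim genes such as ITGB1BP2 have no detection call.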

Other observations

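In all, 4 antisense genes named for members of the collagen and integrin families were measured, although their sense partners are not analysed here. They were picked after the annotation was read. COL18A1-AS1 had 4.46 and 4.61 with control siRNA and 4.17 and 4.22 with SSRP1 siRNA. Both SSRP1 siRNA arrays thus lay below both control arrays, as they did for 22.5% of all genes. Its log2 change was -0.34 ± 0.11 (SE), and it did not pass the limma test (unadjusted p = 0.0191, adjusted p = 0.317). Of all genes 6.03% were lower at an unadjusted p under 0.05. With 1 array left out the COL18A1-AS1 change ran from -0.42 to -0.27. COL18A1-AS2, COL4A2-AS1 and ITGB2-AS1 had changes of 0.01, -0.16 and -0.19, all with overlapping groups and limma adjusted p between 0.763 and 0.972. Each of these 3 turned sign without 1 control array, COL18A1-AS2 to -0.0021 and COL4A2-AS1 to 0.09 without control siRNA replicate 1, and ITGB2-AS1 to 0.06 without control siRNA replicate 2. Whether these probe sets also read sense transcripts was not tested.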
